A study of Mus musculus with 6 samples.

Results

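ATP-binding cassette (ABC) transporters are membrane pumps that use ATP to move lipids, bile constituents, drugs and conjugates across membranes. The genes of subfamilies A, B, C, D and G were taken from a single-colour Agilent mouse array by their names on it, which gave 46 genes with 90 probes among 27326 genes with a probe. Each gene was read from its probe with the highest mean signal over the arrays, and 36 of the 46 passed a filter on dim signal and were tested among 18893 genes.

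The arrays came from the livers of male BALB/c mice, 6 in all, each liver from a separate mouse and on its own array. Mice in the MC-LR group (n = 3) drank water with microcystin-LR at 100 µg/L for 12 months from an age of 6 weeks, and the control group (n = 3) drank sterile water for the same time. Microcystin-LR is a cyanobacterial peptide toxin that blocks protein phosphatases in hepatocytes. Whole liver was used, so fewer cells of a type and less RNA per cell cannot be told apart. The livers carried high signal for hepatocyte markers such as Alb, with mean log2 values of 18.07 (control) and 18.18 (MC-LR).

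In the liver, ABC proteins of the canalicular membrane form bile: Abcb11 exports bile salts, Abcb4 moves phosphatidylcholine outward, and Abcg5 with Abcg8 exports sterols as a heterodimer. Related pumps of the basolateral membrane return conjugates to blood, Abca1 and Abcg1 pass cholesterol to lipoproteins, and others serve peroxisomes and mitochondria. FXR, the bile acid receptor, drives Abcb11, and LXR, the oxysterol receptor, drives Abca1, Abcg1, Abcg5 and Abcg8.

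Stretches of upstream sequence (RefSeq, GRCm38.p6) are shown for genes of bile salt and sterol export whose values are described below. Abcg5 and Abcg8 lie head to head on chromosome 17 and their annotated starts are separated by 109 bases, chr17:84683012-84683120, printed on the strand of Abcg5. Capitals mark the GATA box AGATAA, which occurs there at 2 places. The sequence of Abcb11 is 150 bases before its start (chr2:69342617-69342766, minus strand), with capitals on AGGNCA and TGACCT kept 1 base apart, an inverted repeat of the kind FXR binds. That of Abca1 is 200 bases before its start (chr4:53159896-53160095, minus strand), with capitals on the E-box CACGTG and on the reverse complement of GGTNA and GGTCA kept 5 bases apart, a direct repeat of the kind LXR binds.
Abcg5 to Abcg8: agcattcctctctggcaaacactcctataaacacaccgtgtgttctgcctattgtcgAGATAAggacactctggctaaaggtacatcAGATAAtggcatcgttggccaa
Abcb11: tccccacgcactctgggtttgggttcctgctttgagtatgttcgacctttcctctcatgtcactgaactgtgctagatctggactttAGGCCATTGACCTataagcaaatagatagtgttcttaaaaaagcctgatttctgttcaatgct
Abca1: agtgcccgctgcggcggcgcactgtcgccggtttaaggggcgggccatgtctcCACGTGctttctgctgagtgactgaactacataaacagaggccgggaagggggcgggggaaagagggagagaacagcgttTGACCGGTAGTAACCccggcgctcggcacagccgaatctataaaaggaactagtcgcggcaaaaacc
Both strands were searched in the 250 bases before every annotated start, 32851 windows in all, and 34 of the 46 ABC genes had a window. The inverted repeat was in 0.0335% of all windows and, among the ABC genes, in that of Abcb11. The direct repeat was in 0.177% of windows and, among the ABC genes, in that of Abca1. The E-box was in 6.02% of windows and in those of 4 ABC genes, Abca1, Abca15, Abca8a and Abcc4. The GATA box was in 9.99% of windows and in those of Abca14, Abca16, Abcg5 and Abcg8. The windows of Abcg5 and Abcg8 both contain the 109 bases printed above, so the 2 places there count for both genes. The ABC genes had 40 windows, of which 4 held the E-box and 4 the GATA box. A match describes these letters and is not evidence of binding.

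The comparison of MC-LR with control livers asks which genes differ after the exposure. No ABC gene passed an adjusted p of 0.05 (limma, Benjamini-Hochberg over all 18893 genes), where 3 genes of the whole array did (0.0159%). At an unadjusted p under 0.05, 7 of the 36 ABC genes were on the higher side with MC-LR (19.4%, against 7.5% of all genes) and 1 on the lower side (2.78%, against 5.37%), together 22.2% against 12.9%. The 3 arrays of each group did not overlap for 12 ABC genes, 10 on the higher side (27.8%, against 11.3% of all genes) and 2 on the lower (5.56%, against 9.23%). The median difference was 0.13 over the ABC genes and -0.01 over all genes (0.055 over the ABC genes with normexp, 0.069 when all 6 arrays had to be above background and 0.071 without control 1), and 20 of the 36 (55.6%) lay above 0, against 48.6% of all genes. A difference of at least 1 in either direction was seen for 1 ABC gene and for 2.4% of all genes. The share on the higher side was thus above that of the whole array, and no test was made of this. Both higher-side counts include Abcb10, which passed the filter on dim signal only through its MC-LR arrays. When all 6 arrays had to be well above background, 6 of 34 ABC genes were higher and 1 lower at an unadjusted p under 0.05. The counts over all genes were then 1206 and 1026 of 17297. The counts of 7 and 1 at an unadjusted p under 0.05 depended on the arrays used, and the counts over all genes, 1417 higher and 1014 lower, moved as well. Without control 1 they were 2 and 0, against 820 and 536 of all genes. Without control 2 they were 6 and 0, against 1022 and 662. Without control 3 they were 5 and 3, against 2014 and 1917. Without MC-LR 1 they were 2 and 1, against 809 and 569. Leaving out MC-LR 2 gave 4 and 1, against 1270 and 869, and leaving out MC-LR 3 gave 6 and 1, against 1277 and 996. At an adjusted p of 0.05 the count over all genes was 50 without control 3 and 1 without MC-LR 1.

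**Figure D1:**
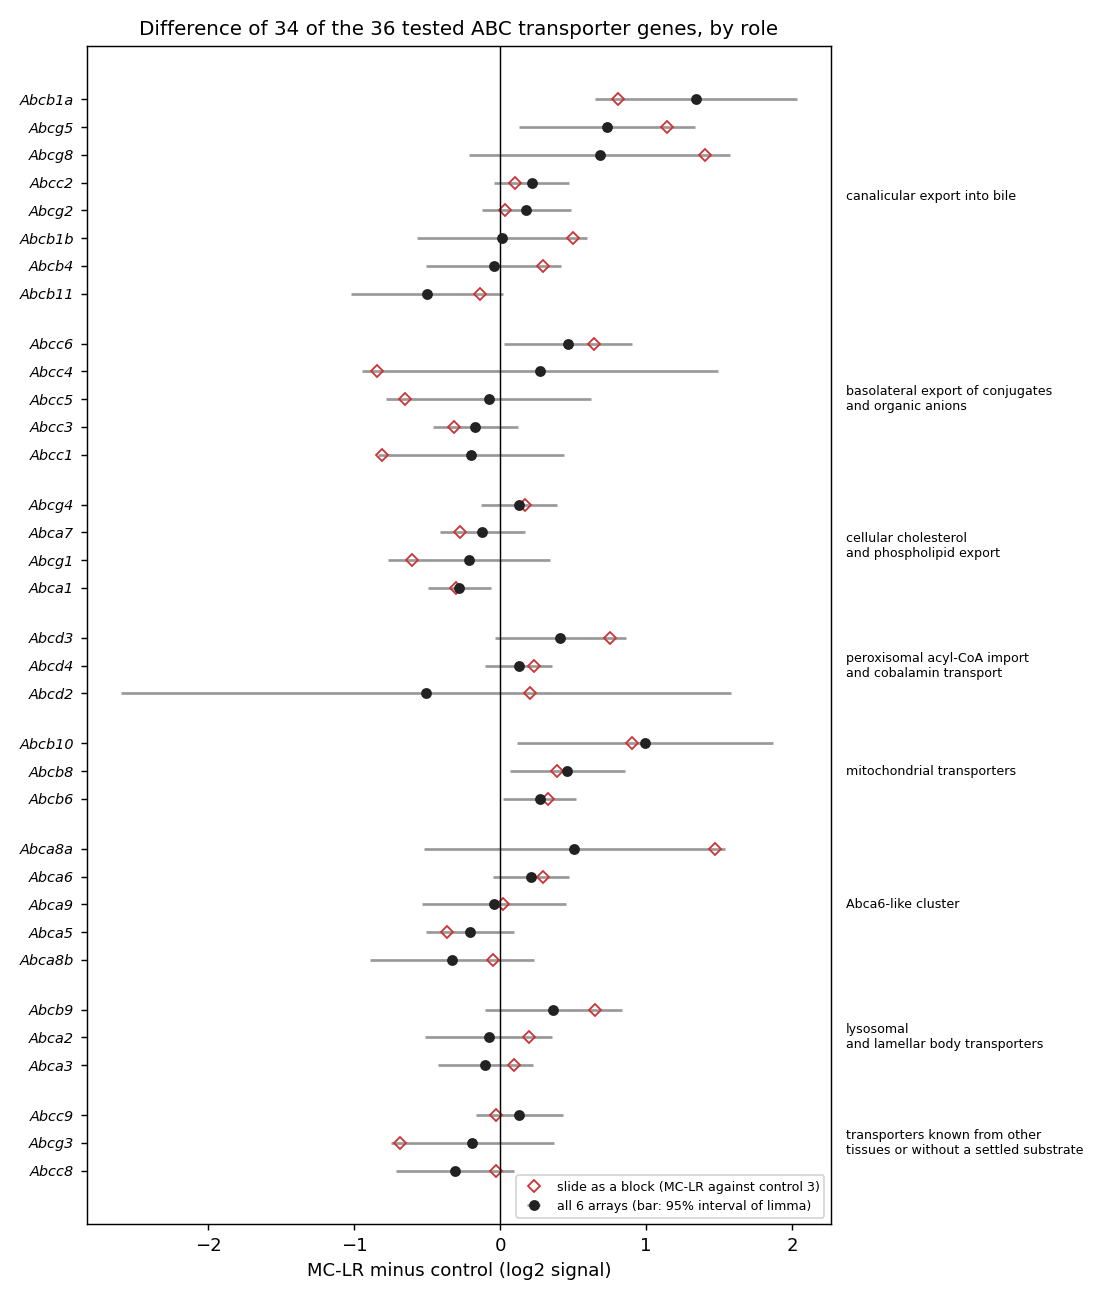
Difference of MC-LR minus control in log2 signal (x axis) for 34 of the 36 tested ABC genes (y axis), grouped by role. Black points are the fit over all 6 arrays with its 95% interval, and open diamonds are the fit with slide as a block. Abcb1a has the highest black point, at 1.34, and Abcd2 the widest interval, from -2.60 to 1.58.

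Slide 1 held controls 1 and 2. Slide 2, scanned separately, held the remaining control and every MC-LR array, so it alone held both groups, and a fit that blocks on slide sets the MC-LR arrays against control 3. In that fit 15 of all genes (0.0794%) and 0 ABC genes passed (limma), with 8 of 36 ABC genes higher, against 7.98% of all genes, and 4 lower, against 8.13%, at an unadjusted p under 0.05. Control 3 stood apart. It was the highest or the lowest of the 6 arrays for 21 of the 36 ABC genes (58.3%, against 44.5% of all genes tested), while the other arrays took that place for 7 to 14 of them. The share of spots well above background ran from 64.9% to 73.7% over the arrays, with 0 saturated. Precision is limited by having 3 arrays a group. Over the ABC genes the median standard error of a difference was 0.18, and for 28 of 36 the 95% interval lay between -1 and 1 on the log2 scale.

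Among the canalicular pumps, Abcb1a had the largest difference of the family over all 6 arrays, but not with slide blocked, where Abca8a, Abcg8, Abcg5 and Abcb10 exceeded it, nor with normexp, where Abcg5 was largest. It encodes a P-glycoprotein that extrudes lipophilic drugs, and its probe lies at chromosome 5, 8747979 to 8748038 (mm9, per the file headers). Its log2 signal was 3.95, 4.43 and 4.99 in controls 1 to 3 and 5.52, 5.98 and 5.90 in the MC-LR arrays. All MC-LR arrays lay above all controls, control 3 being the nearest. The difference of 1.34 ± 0.28 (SE), or 2.54-fold, did not pass (adjusted p = 0.231). It was 0.81 both with slide blocked (adjusted p = 0.269) and within slide 2, and 0.42 when normexp background correction was used. The signal was low, and the reason for the smaller value with normexp was not tested. Over all settings the adjusted p ranged from 0.0649 to 0.665. Its close relative Abcb1b, the other P-glycoprotein of rodents, stood at 10.84, 11.20 and 10.29 in controls and 10.64, 10.86 and 10.88 with MC-LR. These groups overlapped, with a difference of 0.01 and an interval of -0.57 to 0.60. A second Abcb1b probe differed by 0.57 ± 0.28 (SE), so probes of this gene do not give 1 value. Neither of these Abcb1b probes shares a run of more than 7 bases with that of Abcb1a.

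Abcg5 and Abcg8, which share the short region printed above, followed the same order of arrays in part. Abcg5 stood at 13.50, 13.94 and 13.11 in controls and at 14.55, 14.18 and 14.02 with MC-LR, with no overlap. The probe lies at chromosome 17, 85057604 to 85057663 (mm9). The difference was 0.74 ± 0.25, or 1.66-fold, and did not pass (adjusted p = 0.331). Abcg8 stood at 7.87, 8.32 and 7.02 in controls and at 8.84, 8.21 and 8.20 with MC-LR. For both genes control 3 was the lowest array and MC-LR 1 the highest, but for Abcg8 control 2 overlapped the MC-LR arrays. The Abcg8 difference was 0.68 ± 0.37 (adjusted p = 0.483), and a second, dimmer probe of Abcg8 differed by 0.86 ± 0.24. With slide blocked the values were 1.14 for Abcg5 and 1.40 for Abcg8 (adjusted p = 0.186 and 0.184), and without control 3 they were 0.53 and 0.32. Over all settings the adjusted p ranged from 0.186 to 0.697 and from 0.184 to 0.799.

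Abcb11, the bile salt export pump (probe at chromosome 2, 69076390 to 69076449, mm9), had a lower mean with MC-LR. It stood at 15.87, 15.79 and 15.29 in controls and at 15.47, 15.05 and 14.94 with MC-LR, so that control 3 lay among the MC-LR values. The difference of -0.50 ± 0.21 did not pass (adjusted p = 0.402), and with slide blocked it was -0.14. Abcb4, the phosphatidylcholine floppase, stood at 15.44, 15.79 and 15.11 against 15.25, 15.45 and 15.50. Its groups overlapped, with a difference of -0.04 and an interval of -0.51 to 0.42 (0.29 with slide blocked). Abcc2, which exports bilirubin and glutathione conjugates into bile, stood at 12.16, 12.28 and 12.38 against 12.49, 12.58 and 12.40. Its groups did not overlap, control 3 and MC-LR 3 nearly meeting, and the difference was 0.22 ± 0.11 (adjusted p = 0.451, and 0.10 with slide blocked). Abcg2, an exporter of sulphate conjugates and drugs, stood at 13.97, 13.94 and 14.17 against 14.15, 14.09 and 14.39. Its groups overlapped, and the interval of its difference was -0.13 to 0.49. Of the 8 canalicular genes 6 lay above 0, and their median difference was 0.20.

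**Figure D2:**
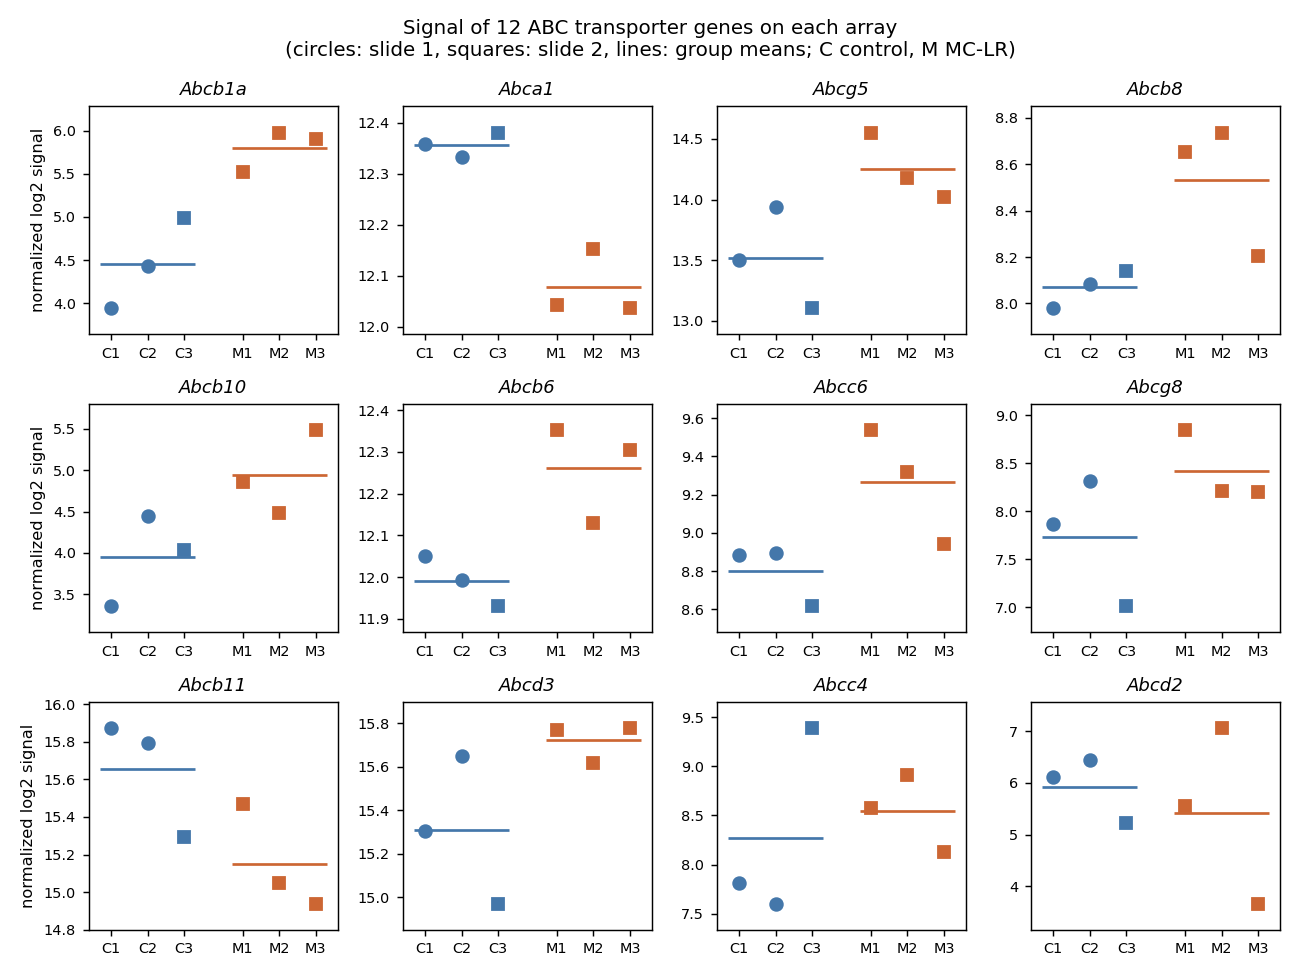
Normalized log2 signal (y axis) of 12 ABC genes on each array (x axis, C1 to C3 control, M1 to M3 MC-LR); circles are slide 1, squares slide 2, and lines group means, with a separate y range per gene. The first 7 panels are genes whose groups did not overlap at an unadjusted p under 0.05; in the last 5 the groups overlapped, and control 3 was the lowest array for Abcg8 (7.02) and Abcd3 (14.97) and the highest for Abcc4 (9.38).

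The basolateral exporters split. Abcc6, the hepatic transporter whose loss causes ectopic calcification, stood at 8.89, 8.90 and 8.62 in controls and at 9.53, 9.32 and 8.94 with MC-LR. The groups did not overlap, MC-LR 3 lying just above controls 1 and 2, and the difference was 0.47 ± 0.18, or 1.38-fold (adjusted p = 0.367, and 0.65 with slide blocked). The other 4 genes, Abcc1, Abcc3, Abcc4 and Abcc5, were all highest on control 3. Abcc4, which exports cyclic nucleotides and bile acids with glutathione, stood at 7.82, 7.60 and 9.38 in controls and at 8.58, 8.91 and 8.13 with MC-LR. Its MC-LR arrays lay between control 3 and the other controls, so the sign depended on which control was used: 0.27 over all arrays, -0.84 with slide blocked and 0.83 when control 3 was left out (adjusted p = 0.847, 0.295 and 0.167). Abcc3, an exporter of glucuronides, stood at 13.24, 13.25 and 13.46 against 12.99, 13.24 and 13.21. Its groups were apart by under 0.01 between control 1 and MC-LR 2, and the difference was -0.17 ± 0.12. Abcc1 and Abcc5, exporters of glutathione conjugates and of nucleotide analogues, differed by -0.20 and -0.08, with slide blocked by -0.81 and -0.65 (adjusted p = 0.128 and 0.311), and without control 3 by 0.10 and 0.21.

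Some marker lists also stood apart on control 3, in either direction. Its excess over the mean of the other controls had a median of 0.86 for the 5 basolateral genes, 0.67 for 8 Kupffer cell and macrophage markers and 1.03 for 5 cholangiocyte markers, against -0.02 for all genes. The same median was -0.52 for the 8 canalicular genes and -0.47 for 8 endothelial markers. Control 3 was the highest of the 6 arrays for 7 of the 8 Kupffer cell markers, the exception being Clec4f. Summed over the list, the log2 signal of Kupffer cell markers was 15.44 to 16.15 in controls and 14.97 to 15.66 with MC-LR, and that of cholangiocyte markers 12.75 to 13.69 and 12.11 to 13.47. All 8 Kupffer cell markers and all 8 endothelial markers had a difference below 0 between MC-LR and control, with medians of -0.23 and -0.37, which were -0.65 and 0.02 with slide blocked. For Marco and Cd68 the sign depended on control 3. Their MC-LR means, 9.23 and 9.36, lay below control 3 (11.18 and 9.75) but above controls 1 and 2. The MC-LR means of Clec4f, Adgre1, Csf1r and C1qa lay below both controls 1 and 2, and those of Vsig4 and Cd5l between them. The cholangiocyte median was -0.10, and -0.76 with slide blocked. By limma 0 Kupffer cell and 0 endothelial markers passed the adjusted threshold. At an unadjusted p under 0.05, 0 and 2 of them were lower, against 5.37% of all genes. Of the cholangiocyte markers Cldn4 was too dim to test. Sox9 was the 1 cholangiocyte marker at that p, at -0.73 ± 0.18 (adjusted p = 0.263) with groups that did not overlap. The Sox9 difference was -0.67 with slide blocked. Krt7 and Krt19 lay above 0, and Epcam and Spp1 below 0, all with overlap. The median difference between MC-LR and control was 0.11 over 8 hepatocyte markers, -0.11 over 8 stellate cell and fibroblast markers, -0.19 over 6 lymphocyte and neutrophil markers and -0.18 over 5 blood cell markers. The part of these cells in the ABC values was not tested.

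Of the cholesterol and phospholipid exporters, Abca1, which loads cholesterol onto apolipoprotein A-I, varied little between mice. It stood at 12.36, 12.33 and 12.38 in controls and at 12.04, 12.15 and 12.04 with MC-LR. The groups did not overlap, and control 3 did not stand apart here. The difference of -0.28 ± 0.09, a 1.21-fold lower signal, did not pass (adjusted p = 0.314). It kept its sign in all 17 other settings, at -0.32 to -0.23, with -0.30 with slide blocked. Some of these settings, such as the replicate block, leave the difference as it was and could not turn it. Abcg1, which passes cholesterol to high density lipoprotein, stood at 10.49, 10.54 and 11.10 against 10.15, 10.67 and 10.67, with overlap and a difference of -0.21 ± 0.23 (-0.60 with slide blocked, -0.018 without control 3 and -0.040 without MC-LR 1). Abca7 and Abcg4 differed by -0.12 and 0.13. Abcg4 passed the filter on dim signal only through its MC-LR arrays, 1 of the 3 controls being well above background. Its difference was 0.021 with normexp. Of the 4 genes 3 lay below 0 and 1 above.

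The peroxisomal half-transporters import fatty acyl-CoA for oxidation, Abcd2 favouring very long chains and Abcd3 taking branched and dicarboxylic ones. Abcd3 stood at 15.31, 15.65 and 14.97 in controls and at 15.77, 15.62 and 15.78 with MC-LR. Control 2 overlapped the MC-LR arrays and control 3 was lowest, and the difference of 0.41 ± 0.18 (adjusted p = 0.415) was 0.75 with slide blocked and 0.24 without control 3. Abcd2 varied most within a group: 6.13, 6.45 and 5.22 in controls and 5.54, 7.06 and 3.66 with MC-LR. Its MC-LR values spanned its whole range, so the interval of its difference ran from -2.60 to 1.58. Both Abcd2 probes followed this order, the second reading 5.08, 6.72 and 3.98 with MC-LR. Abcd4, which takes part in lysosomal cobalamin export, differed by 0.13 ± 0.10.

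All 4 mitochondrial genes lay above 0, with a median of 0.37, and 3 of them were at an unadjusted p under 0.05 with groups that did not overlap. Of all genes 7.5% were higher at that p and 11.3% were higher without overlap. Among the 3 mitochondrial genes, Abcb10 passed the filter on dim signal only through its MC-LR arrays. Abcb10, an inner membrane protein tied to haem synthesis, stood at 3.36, 4.45 and 4.04 in controls and at 4.86, 4.49 and 5.48 with MC-LR. Control 2 and MC-LR 2 nearly met. The signal was near background, 2 of the 3 controls being well above it. Its difference was 0.99 ± 0.36 (adjusted p = 0.352) and was 0.20 with normexp. A second, dimmer probe, with a control mean of 3.36, differed by 0.93 ± 0.16 without normexp. Abcb8, a subunit of the mitochondrial ATP-sensitive potassium channel, stood at 7.98, 8.09 and 8.14 against 8.65, 8.74 and 8.20. MC-LR 3 lay close to the controls, and the difference was 0.46 ± 0.16 (adjusted p = 0.344). Abcb6, linked to porphyrin transport, stood at 12.05, 11.99 and 11.93 against 12.35, 12.13 and 12.30, a difference of 0.27 ± 0.10 (adjusted p = 0.363). With slide as a block these 3 values stayed above 0, at 0.91, 0.39 and 0.33 in the order named (adjusted p = 0.329 to 0.469).

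**Figure D3:**
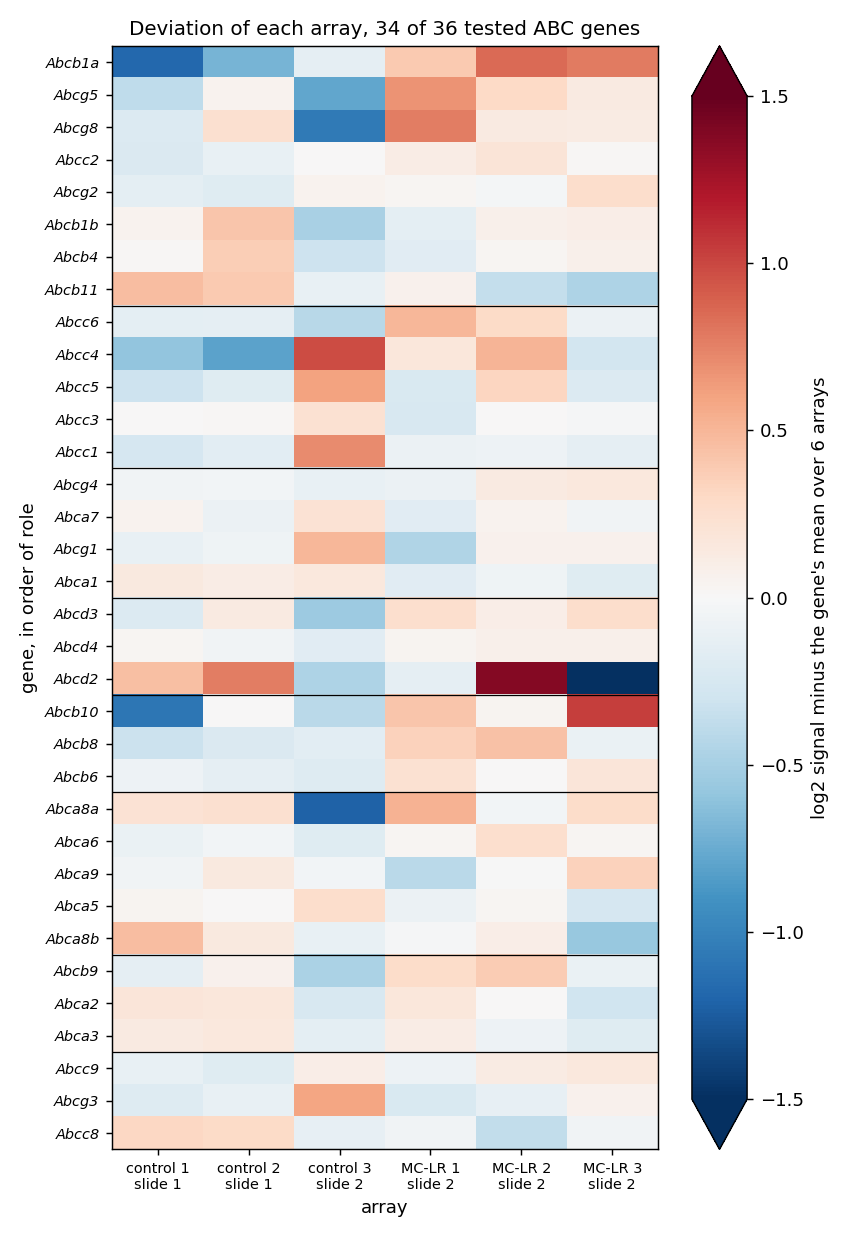
Deviation of each array from the mean of the gene over the 6 arrays, in log2 signal (colour), for 34 of the 36 tested ABC genes (rows, in order of role, with lines between roles) and the 6 arrays (columns, with slide). Control 3 is the highest array for Abcc4 and Abcc1 and the lowest for Abca8a and Abcg8, and Abcd2 differs most within the MC-LR group.

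The genes of the Abca6-like cluster on chromosome 11, lipid transporters without a settled substrate, did not share a direction. Abca8a had its lowest value on control 3, at 10.74, 10.76 and 9.31 in controls against 11.05, 10.48 and 10.80 with MC-LR. The difference of 0.51 ± 0.42 over all arrays (adjusted p = 0.642) was 1.47 with slide blocked (adjusted p = 0.132) and 0.03 when control 3 was left out. Abca6 stood at 11.45, 11.52 and 11.37 against 11.59, 11.80 and 11.59, apart by a small step, with a difference of 0.21 ± 0.11. Abca8b, Abca5 and Abca9 differed by -0.33, -0.21 and -0.04. Among lysosomal and lamellar body proteins, Abcb9, a lysosomal peptide transporter, differed by 0.36 ± 0.19, and Abca3 and Abca2 by -0.10 and -0.08. Of the genes better known elsewhere, Abcc8 and Abcc9, regulatory subunits of ATP-sensitive potassium channels, differed by -0.31 ± 0.17 and 0.13 ± 0.12, and Abcg3 by -0.19 ± 0.23. The remaining 10 genes, Abca4, Abca12 to Abca17, Abcb5, Abcc10 and Abcc12, were not well above background on all 3 arrays of either group and were not tested, 6 of them being so on no array. Among them Abca4 is a retinal and Abca12 an epidermal lipid transporter.

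Lists of genes around the family gave no call either. Of 12 nuclear receptors and factors of ABC genes 0 passed by limma, with 2 higher and 1 lower at an unadjusted p under 0.05, and a median difference of -0.03. Of all genes 7.5% were higher and 5.37% lower at that p. Nr0b2, the FXR-induced repressor SHP, had means of 9.94 (control) and 8.96 (MC-LR), a difference of -0.98 ± 0.22 (adjusted p = 0.242). Its groups did not overlap, and the difference was -0.81 with slide blocked. The largest other difference was that of Ppara, a fatty acid receptor, at 0.63 ± 0.35 (adjusted p = 0.494). Its groups overlapped, control 3 was its lowest array, and the difference was 1.41 with slide blocked. Rxra, the common partner of these receptors, differed by 0.54 ± 0.15 (adjusted p = 0.282), and by 0.29 with slide blocked. Nr1i2, the xenobiotic receptor PXR, differed by 0.42 ± 0.21 (adjusted p = 0.458), and by 0.36 with slide blocked. Nr1h4, which encodes FXR and is named after its values were seen, differed by 0.27 ± 0.10. Of 12 measured partners and anchors 0 passed, 1 was higher at an unadjusted p under 0.05 and the median was -0.06. That 1 was Slc9a3r1, the scaffold NHERF1 that binds canalicular transporters, with a difference of 0.67 ± 0.14 (adjusted p = 0.231). Slc51b, a subunit of the basolateral bile acid exporter, differed by -0.40, Atp8b1, a canalicular flippase, by -0.35, and Msn by -0.23. The groups overlapped for each, and with slide blocked the values were -0.74, -0.09 and -0.93. Control 3 was the highest array for Msn, at 8.89, and the MC-LR mean of 7.96 lay above controls 1 and 2. Of 6 measured ABC proteins with other names, which include the non-transporting E and F subfamilies and the peptide transporters of antigen presentation, 0 passed and 2 were higher at an unadjusted p under 0.05. Tap2 differed by 0.66, Abcf1 by 0.40 ± 0.09, Tap1 by 0.34 and Abcf2 by 0.25. With slide as a block Tap2 stood at -0.57 and Abcf1 at 0.31.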

How the data were processed

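Per the labels, total RNA of each liver was amplified and labelled with Cy3. The deposited scanner files hold spot intensity. The submitters' processing notes name Agilent Feature Extraction 10.7. Its processed signal was background-subtracted and detrended, with a surrogate for dim spots, per the file headers. The deposited log2 values were quantile normalized by the authors in GeneSpring, per the series' design text. They correlated with log2 of their own array's processed signal at r = 0.9982 or more, with a median of 5.94 per array. Per the file headers, flags (other) mark spots well above background and outliers.

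The processed signal was floored at 1 and put on the log2 scale, outlier spots were left out, spots of a probe were averaged and arrays were quantile normalized. Probes of a gene were reduced to the one with the highest mean of the deposited values, kept if well above background on all 3 arrays of a group. Names other than those of ABC genes came from RefSeq accessions (27682 probes), symbols or synonyms (5980) or the file (7422). The MC-LR and control arrays were compared by limma 3.58.1 (R 4.3.3), two-sided, with the Benjamini-Hochberg adjustment made over 18893 genes. Residual degrees of freedom were 4 and prior ones 2.05. The fit was tested on simulated data. Alternatives were normexp correction, 75th percentile scaling, the deposited values, other filters, the mean of a gene's probes, slide or replicate number as a block, slide 2 alone, eBayes with trend and robust, and leaving out each array. Of 27 further passing probes of 20 ABC genes, 22 had the sign of the chosen probe and 5 the opposite sign, among them those of Abca2, Abca5, Abcc4 and Abcc5.

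The genes and lists were chosen with earlier results of these data known, and the motifs after their values were seen. Values per array were planned for 16 transporters of liver lipid, bile or peroxisomes. They were also planned for genes whose groups did not overlap at an unadjusted p under 0.05. Those of Abca6 and Abca8a are given as well, although neither gene met this rule. Other genes are examples with the largest differences. Some genes counted in the totals are not reported here by name.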

Additional observations from a re-analysis of the deposited data

How the results depend on the processing

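Having 3 arrays per group limits the precision. The differences of the dim genes Abcb1a and Abcb10 were 1.34 and 0.99, and 0.42 and 0.20 with normexp. The reason for this was not tested. No ABC gene passed the adjusted threshold in any of the 17 other settings (limma). Over all genes the count of 3 became 1 with normexp, 1 with 75th percentile scaling, 1 when every array had to be well above background, 5 with no filter, 15 with slide as a fixed block, 0 within slide 2 (1127 higher and 1178 lower at an unadjusted p under 0.05), and 1 to 50 when 1 array was left out. With 1 array left out, ABC genes at an unadjusted p under 0.05 numbered 2 to 6 on the higher side and 0 to 3 on the lower. With all arrays they numbered 7 and 1. The higher count rose to 9 with eBayes trend and robust, against 1461 of all genes. It was 8 with 75th percentile scaling and 8 with the mean of a gene's probes, against 1333 and 1476 of all genes. The lower count became 4 when slide was blocked and 2 with eBayes trend and robust, the latter against 1091 of all genes. Of 610 differences of single genes under other settings, 577 kept their direction and 33, of 11 genes, did not. In all, 25 of 36 genes kept it throughout. These counts include settings that leave the difference as it was and so could not turn it. They are the replicate block, eBayes with trend and robust, no filter, and all 6 arrays well above background. With slide as a fixed block, which gives the same difference as slide 2 alone, the sign turned for Abca2 (0.20), Abca3 (0.095), Abca9 (0.021), Abcb4 (0.29), Abcc4 (-0.84), Abcc9 (-0.031) and Abcd2 (0.20). With slide as a random block it turned for Abca2 (0.039), Abcb4 (0.10) and Abcc4 (-0.20), and with 75th percentile scaling for Abcb4 (0.043). When 1 array was left out the differences ran from -0.22 to 0.050 for Abca2, -0.22 to 0.15 for Abca9, -0.23 to 0.23 for Abcb1b, -0.21 to 0.13 for Abcb4, -0.38 to 0.10 for Abcc1, -0.059 to 0.83 for Abcc4, -0.26 to 0.21 for Abcc5, -1.33 to 0.37 for Abcd2 and -0.33 to 0.058 for Abcg3. The cause was not tested. Same-numbered arrays of the 2 groups deviated from their group means with r of 0.186, -0.325 and -0.196. Differently numbered arrays gave r of -0.21 to 0.364. With 3 arrays a group, these values cannot tell whether the numbers pair the mice. With the replicate block 0 genes of the array and 0 ABC genes passed, and 5 of 36 ABC genes were on the higher side and 1 on the lower at an unadjusted p under 0.05, against 1082 and 753 of 18893 genes.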
